A study of Mus musculus with 2 samples.

Results

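The genes described here encode 10 core subunits of the Polycomb repressive complexes, taken by symbol (Ezh2, Ezh1, Suz12, Eed, Jarid2, Ring1, Rnf2, Bmi1, Cbx2 and Cbx7) from the 18510 genes of a deposited count table. All 10 were found. RNA was sequenced from neural stem cells from brains of CD-1 mice at embryonic day 12, grown for 5 days in proliferation medium and infected with a lentivirus that carried an H3.3 knockdown plasmid or a control plasmid. Histone H3.3 differs from the main H3 proteins in that cells also deposit it outside of DNA replication. Each group was 1 library of a whole culture, and the knockdown sequence, the number of embryos and the share of infected cells are not stated in the labels.

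Since each group was a single library, the differences have no replicate check, and p-values were not computed. All intervals are 95% intervals that cover counting error only. The H3.3 knockdown library held 8702855 counts and the control library 9184779. Levels are given in CPM, counts scaled to the total of their library, and ratios are H3.3 knockdown over control. A gene counted as tested at a mean of at least 1 CPM, which 13989 genes and all 10 subunits reached. A gene is called risen or fallen where its log2 ratio passed 1.5-fold and its counting interval excluded 1, and a 2-fold form of the same rule was also counted.

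Polycomb repressive complex 2 (PRC2) methylates lysine 27 of histone H3, a mark of silenced developmental genes, through a catalytic subunit that is either EZH2 or EZH1. EZH2 is abundant in dividing progenitors, whereas EZH1 is also present in non-dividing cells and is the weaker methyltransferase. Polycomb repressive complex 1 (PRC1) ubiquitinates histone H2A through RING1 or RNF2, and its canonical form reads the PRC2 mark through a CBX protein. In the developing brain these complexes hold back cell cycle inhibitors and control when progenitors change from making neurons to making glia.

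Both genes for H3.3, the labelled target, fell. H3f3b had 447 CPM in the H3.3 knockdown library and 821 CPM in the control library (ratio 0.544, interval 0.523 to 0.566), and H3f3a had 135 and 209 CPM (0.646, 0.601 to 0.695). All 9 neural stem cell and radial glia markers looked at, Nes and Sox2 among them, were present in both libraries, with summed levels of 4910 CPM in H3.3 knockdown and 4983 CPM in control, and 2 of them, Sox1 (0.461) and Pax6 (0.536), fell. Transcripts of other cells were also present. The 10 neuronal markers summed to 7299 and 5334 CPM, the 6 astrocyte markers to 851 and 787 CPM, the 9 oligodendrocyte lineage markers to 1976 and 2010 CPM, and the 7 mesenchyme and pericyte markers to 57.1 and 69.8 CPM. Microglia markers summed to 5.52 and 3.70 CPM, with at most 14 counts for any of them in a library. Endothelial markers summed to 13.3 and 7.08 CPM. Of these Kdr rose to 85 counts in H3.3 knockdown, against 55 in control, Flt1 had 20 counts in H3.3 knockdown and was at 0 in control, Pecam1 had 9 counts in each library, and Cdh5 and Cldn5 were not in the table. Of 5 erythroid genes only Alas2 was listed, with 3 counts in H3.3 knockdown and 1 in control. In RNA of a whole culture, fewer cells of a type and less RNA per cell cannot be told apart.

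In the H3.3 knockdown library, Ezh2 and Cbx2 fell and no other core subunit passed the 1.5-fold rule in either direction. That is 2 of 10 lower and none higher, where 8.20% of all tested genes were lower by this rule, 9.01% higher and 17.2% either. By the 2-fold rule none of the 10 was called, where 3.82% of all tested genes were higher, 2.54% lower and 6.36% either. The counting interval excluded 1 for 5 of the 10 (Ezh2, Cbx2 and Suz12 lower, Ezh1 and Jarid2 higher), where it did so for 49.9% of all tested genes. For the interval rule the share of the subunits was thus that of the table as a whole. The median log2 ratio of the 10 subunits was -0.13, beside -0.03 for all tested genes, and 8 of the 10 lay below 0. A median below that of all tested genes was not particular to the subunits. The 359 tested genes annotated to chromatin binding, all 10 subunits among them, had a median of -0.20. By the 1.5-fold rule 15 of these were higher and 59 lower. After a correction for gene length and GC content the median of the subunits was -0.07, beside 0.00 for all tested genes. The authors' deposited table marked none of the 10 as differential, where it marked 1081 of all 18510 genes (5.84%).

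**Figure D1:**
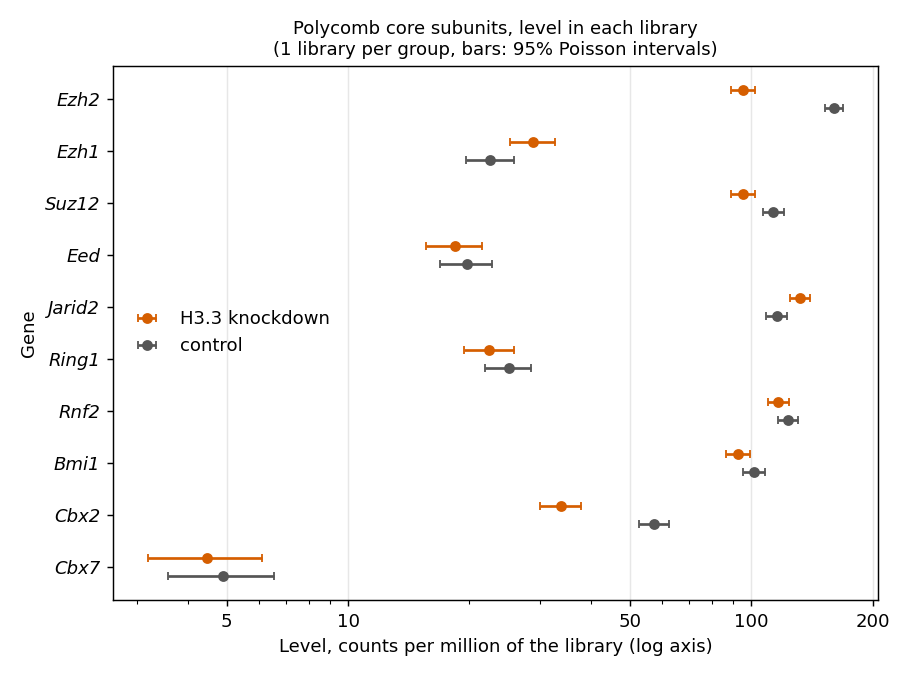
Level of each core subunit in CPM (log axis), with the H3.3 knockdown library drawn above the control library and bars for 95% Poisson intervals of the count. Ezh2 and Cbx2 stand apart between the libraries, at 95.5 against 161 CPM and 33.7 against 57.5 CPM, the intervals of Suz12 and Jarid2 are also apart, and those of Ezh1, Eed, Ring1, Rnf2, Bmi1 and Cbx7 overlap.

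Ezh2, the main methyltransferase of PRC2 in dividing cells (ENSMUSG00000029687, chromosome 6 from 47530139 to 47595341, minus strand), had 831 counts in the H3.3 knockdown library and 1475 in the control library. Its level was 95.5 CPM in H3.3 knockdown and 161 CPM in control, a ratio of 0.595 (interval 0.545 to 0.648) and a log2 ratio of -0.75. Of all tested genes, 5.81% had a lower ratio. Its paralog Ezh1 (ENSMUSG00000006920, chromosome 11 from 101191115 to 101226463, minus strand) had a ratio above 1, with 250 counts or 28.7 CPM in H3.3 knockdown and 207 counts or 22.5 CPM in control. The Ezh1 ratio was 1.27 (1.06 to 1.54), a value short of 1.5-fold whose interval excluded 1, and 20.0% of tested genes had a higher one.

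The balance of the 2 methyltransferase genes therefore differed between the libraries. There were 3.32 Ezh2 counts per Ezh1 count in H3.3 knockdown (2.88 to 3.84) and 7.13 in control (6.16 to 8.28). Ezh2 held 76.9% of the pair's counts in H3.3 knockdown (exact binomial interval 74.2% to 79.4%) and 87.7% in control (86.0% to 89.2%). The ratio of these ratios was 0.467 (exact conditional interval 0.379 to 0.574), a value that no scaling of the libraries can alter. Per length of merged exons, Ezh2 exceeded Ezh1 3.70-fold in H3.3 knockdown and 7.94-fold in control. With the longest transcript as the length these were 5.02-fold and 10.8-fold. Ezh2 stayed the more abundant gene of the pair in both libraries by either length. Both genes together had 124 CPM in H3.3 knockdown and 183 CPM in control, a ratio of 0.678 (0.628 to 0.733).

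**Figure D2:**
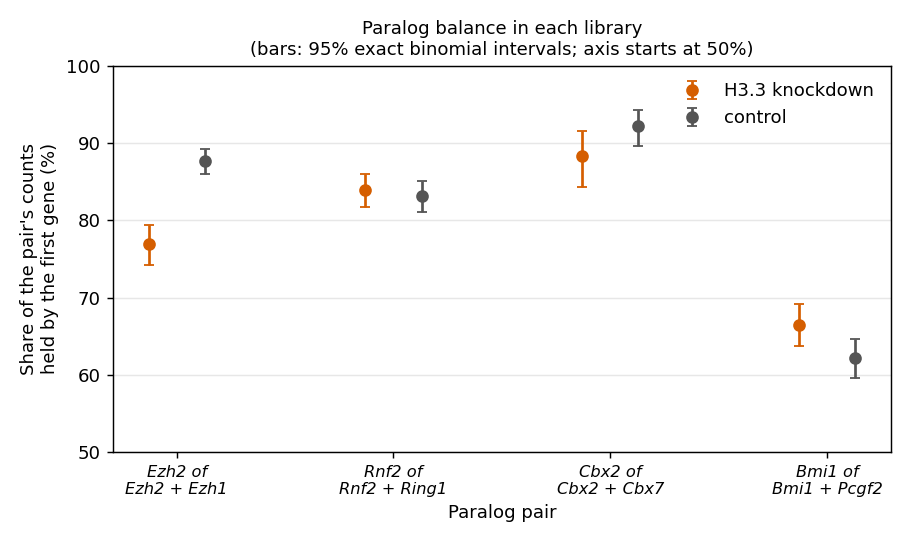
Share of the pair's counts held by the first gene (percent, axis from 50) in the H3.3 knockdown library, left, and the control library, right, for 4 paralog pairs, with 95% exact binomial intervals. The Ezh2 share is 76.9% in H3.3 knockdown and 87.7% in control with intervals apart, whereas the Rnf2 share is 83.9% and 83.1%.

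The promoters of Ezh2 and Ezh1 are shown because the balance of these genes differed between the libraries, and that of Suz12 because it is the other core subunit whose window held an E2F motif. E2F factors drive genes of DNA replication, and Ezh2 is a known E2F target in mouse and human cells. Each line is a RefSeq window (build GRCm38.p6) from 250 bases before to 50 after the start site, 5′ to 3′ on the strand of the gene, with matches to TTTGGCGC, TTTGCCGC, TTTCGCGC or TTTCCCGC on either strand in capitals. The windows are chr6:47594981-47595280 (minus strand) for Ezh2, chr11:101226414-101226713 (minus strand) for Ezh1 and chr11:79992856-79993155 (plus strand) for Suz12.
Ezh2: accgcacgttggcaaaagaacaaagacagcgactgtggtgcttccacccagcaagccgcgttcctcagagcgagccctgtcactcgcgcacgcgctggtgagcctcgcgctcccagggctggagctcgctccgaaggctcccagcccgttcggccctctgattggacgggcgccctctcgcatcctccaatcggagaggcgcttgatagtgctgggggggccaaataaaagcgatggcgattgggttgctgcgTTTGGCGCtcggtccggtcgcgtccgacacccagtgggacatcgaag
Ezh1: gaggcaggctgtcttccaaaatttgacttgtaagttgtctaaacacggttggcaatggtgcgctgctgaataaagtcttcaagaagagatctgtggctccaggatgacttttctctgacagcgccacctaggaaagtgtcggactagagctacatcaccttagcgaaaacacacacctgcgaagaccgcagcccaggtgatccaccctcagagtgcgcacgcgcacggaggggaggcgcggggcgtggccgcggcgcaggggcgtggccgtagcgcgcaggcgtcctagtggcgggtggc
Suz12: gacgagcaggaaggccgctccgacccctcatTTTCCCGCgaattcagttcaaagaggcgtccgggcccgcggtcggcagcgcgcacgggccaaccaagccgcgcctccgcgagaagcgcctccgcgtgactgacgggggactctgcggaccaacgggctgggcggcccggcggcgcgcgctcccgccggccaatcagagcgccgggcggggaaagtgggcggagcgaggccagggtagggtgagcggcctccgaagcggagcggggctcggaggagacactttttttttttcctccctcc
The Ezh2 window held TTTGGCGC starting 3 bases after the start site, and the Suz12 window held TTTCCCGC starting 219 bases before it. The windows of the other matched subunits, Ezh1 among them, held none of these letters. Windows were found for 9 of the 10 genes, 10 windows in all with 2 for Jarid2, and Cbx2 was not matched. The E2F letters occurred in 2.26% of all 32851 windows and in 3.90% of the 13520 windows of tested genes. They were in 6 of 13 windows of the replication genes and 1 of 8 windows of the mitotic genes described below. The part of E2F factors in the ratios given here was not tested. CCAAT or its reverse complement was found in 37.4% of all windows, in 10 of 13 replication windows and in 8 of 8 mitotic windows. The Ezh2 window held this motif 3 times, and the Ezh1 window held none. Neither window held TTTGAA or its reverse complement, which 17.9% of all windows, 1 of 13 replication windows and 6 of 8 mitotic windows did. GC content was 64.3% in the Ezh2 window and 59.3% in the Ezh1 window, against a median of 61.0% over windows of tested genes.

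Suz12 and Eed, the scaffold and the mark-reading subunit without which PRC2 has no activity, differed less than Ezh2. Suz12 (ENSMUSG00000017548, chromosome 11 from 79993106 to 80034123, plus strand) had 828 counts or 95.1 CPM in H3.3 knockdown and 1041 counts or 113 CPM in control (ratio 0.839, 0.765 to 0.921). Eed (ENSMUSG00000030619, chromosome 7 from 89954656 to 89980983, minus strand) had 160 counts or 18.4 CPM in H3.3 knockdown and 181 counts or 19.7 CPM in control (0.933, 0.749 to 1.16), so no difference was detectable at this depth. Jarid2, a DNA-binding cofactor that helps to recruit PRC2 (ENSMUSG00000038518, chromosome 13 from 44729474 to 44921643, plus strand), was the only other subunit with a log2 ratio above 0, at 1150 counts or 132 CPM in H3.3 knockdown and 1062 counts or 116 CPM in control (1.14, 1.05 to 1.24).

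Within PRC2 the ratios thus spread. Counts of Ezh2 per count of Suz12 were 1.00 in H3.3 knockdown and 1.42 in control, a ratio of ratios of 0.708 (0.624 to 0.804). For Ezh2 against Eed it was 0.637 (0.504 to 0.807) and against Jarid2 0.520 (0.461 to 0.587). Suz12 against Eed gave 0.900 (0.709 to 1.14), an interval that holds 1. Jarid2 and Aebp2 mark a form of PRC2 separate from the one that holds Mtf2, a recruiter that binds CpG-rich DNA. Mtf2 had 66.6 CPM in H3.3 knockdown and 55.4 CPM in control (1.20, 1.07 to 1.36), and Aebp2 73.4 and 80.2 CPM (0.915, 0.822 to 1.02). Jarid2 against Mtf2 gave a ratio of ratios of 0.950 (0.819 to 1.10), and Jarid2 against Aebp2 1.25 (1.09 to 1.43).

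Of the PRC1 genes, neither ubiquitin ligase passed 1.5-fold, and the intervals of both held 1. Rnf2, also called RING1B (ENSMUSG00000026484, chromosome 1 from 151458004 to 151500955, minus strand), had 1016 counts or 117 CPM in H3.3 knockdown and 1133 counts or 123 CPM in control (0.946, 0.869 to 1.03). Ring1 (ENSMUSG00000024325, chromosome 17 from 34020792 to 34024680, minus strand) had 195 counts or 22.4 CPM in H3.3 knockdown and 230 counts or 25.0 CPM in control (0.895, 0.736 to 1.09). Rnf2 held 83.9% of the pair's counts in H3.3 knockdown (81.7% to 85.9%) and 83.1% in control (81.0% to 85.1%). The ratio of ratios was 1.06 (0.854 to 1.31), an interval that holds 1 and lies wholly above that of the Ezh2 to Ezh1 balance. Its log2 value of 0.08 was -0.02 after the length and GC correction. Per length of merged exons, Rnf2 exceeded Ring1 4.09-fold in H3.3 knockdown and 3.87-fold in control.

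Bmi1 (also PCGF4) stimulates the ligase and sustains self-renewal of neural stem cells by holding down the Cdkn2a locus. It lies on chromosome 2 from 18677018 to 18686629, plus strand (ENSMUSG00000026739), and had 808 counts or 92.8 CPM in H3.3 knockdown and 932 counts or 101 CPM in control (0.915, 0.832 to 1.01). Its nearest paralog Pcgf2 had 408 counts or 46.9 CPM in H3.3 knockdown and 568 counts or 61.8 CPM in control (0.758, 0.666 to 0.862). Bmi1 held 66.4% of this pair's counts in H3.3 knockdown (63.7% to 69.1%) and 62.1% in control (59.6% to 64.6%), a ratio of ratios of 1.21 (1.03 to 1.42). Per length of merged exons, Bmi1 exceeded Pcgf2 1.76-fold in H3.3 knockdown and 1.46-fold in control.

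Cbx2, a CBX protein that reads the PRC2 mark and compacts chromatin (ENSMUSG00000025577, chromosome 11 from 119022962 to 119031270, plus strand), had the lowest ratio of the 10. It held 293 counts or 33.7 CPM in H3.3 knockdown and 528 counts or 57.5 CPM in control (0.586, 0.506 to 0.677), and 5.35% of tested genes had a lower ratio. Cbx7, the CBX protein best known from embryonic stem cells (ENSMUSG00000053411, chromosome 15 from 79915807 to 79971119, minus strand), had the fewest counts of the 10, with 39 counts or 4.48 CPM in H3.3 knockdown and 45 counts or 4.90 CPM in control (0.915, 0.580 to 1.44). Cbx2 held 88.3% of the counts of this pair in H3.3 knockdown (84.3% to 91.5%) and 92.1% in control (89.6% to 94.2%). The ratio of ratios was 0.641 with an interval of 0.398 to 1.04, so a difference in this balance was not detectable with so few Cbx7 counts. Per length of merged exons, Cbx2 exceeded Cbx7 11.4-fold in H3.3 knockdown and 17.9-fold in control.

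Cbx8, which also encodes a reader of the PRC2 mark, did not share the ratio of Cbx2. It lies on chromosome 11 from 119036305 to 119040969, on the other strand. Cbx8 had 21.0 CPM in H3.3 knockdown and 20.4 CPM in control (1.03, 0.838 to 1.27). Cbx2 against Cbx8 gave a ratio of ratios of 0.567 (0.439 to 0.733). On chromosome 15, Cbx6 had 96.1 CPM in H3.3 knockdown and 119 CPM in control (0.809, 0.739 to 0.887), and Cbx7 against Cbx6 gave 1.13 (0.709 to 1.79).

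**Figure D3:**
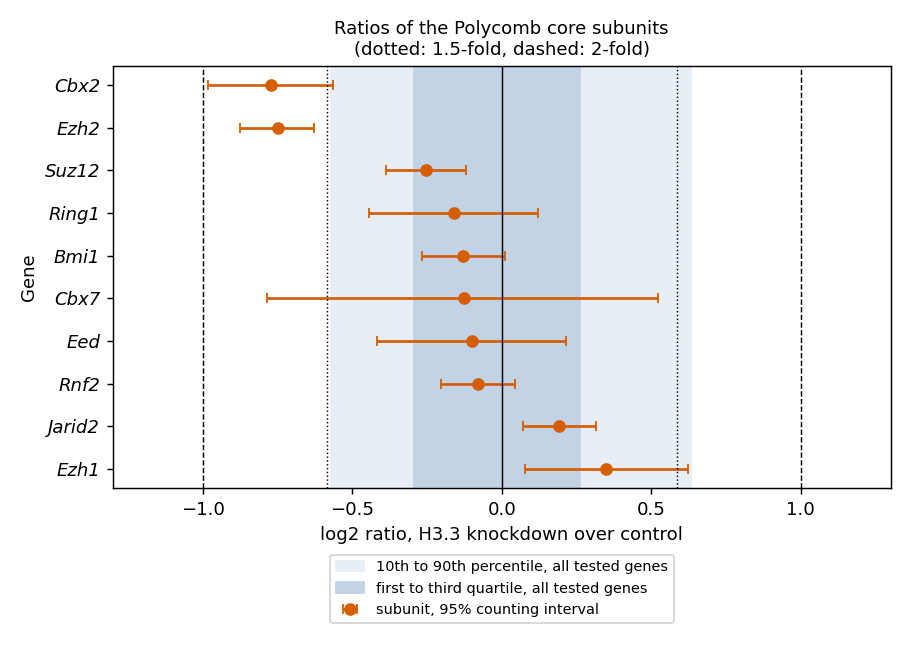
Log2 ratio of each core subunit, H3.3 knockdown over control, with 95% counting intervals; the bands hold the quartile range and the 10th to 90th percentile of all tested genes. Cbx2 (-0.77) and Ezh2 (-0.75) lie below the 10th percentile of -0.57, and the other 8 lie inside the 10th to 90th percentile band.

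Set against each other, the 10 ratios differed in part. Of the 45 pairs of subunits, 23 had a ratio of ratios whose interval excluded 1, with no adjustment for the number of pairs. The share over pairs of all tested genes was not computed. For single tested genes, the interval of the ratio excluded 1 for 49.9%. The pair counts, in total and by subunit, are therefore no result about the subunits as a set. Ezh2 and Cbx2 did not differ from each other beyond counting error (1.02, 0.857 to 1.20), and each differed from 7 of its 9 partners. Ezh1 also differed from 7 of its 9 partners, and Jarid2 from 6. Ezh1 against Jarid2 gave 1.12 (0.907 to 1.37). None of the 10 pairs among Eed, Ring1, Rnf2, Bmi1 and Cbx7 had an interval that excluded 1. Cbx7, with its few counts, differed from no other subunit in this sense.

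Per kilobase of merged exons, the order of the subunits ran from Rnf2 to Cbx7 in both libraries. Rnf2 had 28.3 CPM per kilobase in H3.3 knockdown and 29.9 in control, Bmi1 23.4 and 25.5, Suz12 19.2 and 22.9, Ezh2 14.3 and 24.0, Jarid2 13.6 and 11.9, and Cbx2 7.91 and 13.5. Ring1 (6.91 and 7.72), Eed (4.80 and 5.15), Ezh1 (3.86 and 3.03) and Cbx7 (0.691 and 0.755) followed. In the control library the counting intervals of Ezh2 overlapped those of Bmi1 and Suz12, its neighbours in the order, and in the H3.3 knockdown library Ezh2 was below Suz12 and overlapped Jarid2. Cbx2 overlapped Ring1 in H3.3 knockdown and Jarid2 in control, and Eed overlapped Ezh1 in H3.3 knockdown. The order depended on the length used. Per kilobase of the longest transcript, Ezh2 had 34.3 in H3.3 knockdown, next below Rnf2 with 36.5 and overlapping it, and 57.6 in control, above Rnf2 with 38.5.

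**Figure D4:**
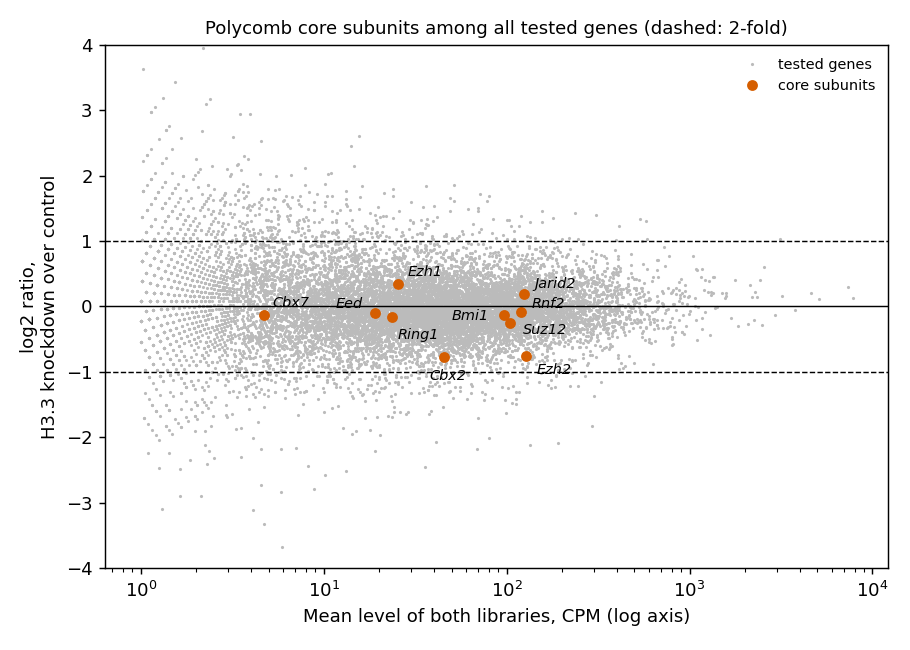
Log2 ratio, H3.3 knockdown over control, against the mean level of both libraries in CPM (log axis) for all tested genes in grey and the 10 core subunits in colour; 2 tested genes lie beyond the axis. All 10 subunits lie between the 2-fold lines, with Ezh2 and Cbx2 toward the lower one.

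The other Polycomb genes were described by 5 lists, chosen with earlier results of these data known. Of 48 genes 47 were listed and tested. By the 1.5-fold rule 2 were higher and 2 lower, against 9.01% higher and 8.20% lower among all tested genes. By the 2-fold rule 1 was higher and none lower, against 3.82% and 2.54%. The median log2 ratio was -0.20, beside -0.03 for all tested genes and -0.20 for those annotated to chromatin binding. The PRC2 accessory list held 8 tested genes with a median of -0.08. Among them Lcor, a locus that also makes a PRC2 cofactor, rose to 53.3 CPM in H3.3 knockdown, against 26.0 CPM in control (2.05-fold, 1.75 to 2.41), the 1 gene past 2-fold. Counts are per gene, so transcripts of Lcor that make the cofactor cannot be told from its other transcripts. The histone-binding subunits Rbbp4 and Rbbp7 had ratios of 0.815 and 0.865. Of 10 further canonical PRC1 genes (median -0.27), Scml4 fell to 124 counts in H3.3 knockdown, against 260 in control (0.503, 0.403 to 0.626), and Scml2 rose to 49 counts, against 30 (1.72-fold, 1.07 to 2.81).

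Of 18 genes of variant PRC1, the form that works without a CBX protein, 1 fell and none rose, with a median of -0.19. Pcgf3, which takes the place of Bmi1 in one of these complexes, had 86.2 CPM in H3.3 knockdown and 137 CPM in control (0.630, 0.574 to 0.690). The 8 genes of PR-DUB, which removes the PRC1 mark, had a median of -0.25 and the 3 H3K27 demethylase genes 0.12, with none past the rule in either list. Their most abundant genes were Bap1, the PR-DUB enzyme (1.20, 1.12 to 1.29), Foxk2 (0.899, 0.833 to 0.971), the demethylase Kdm6b (1.09, 1.01 to 1.16) and Kdm6a (0.804, 0.717 to 0.901). The complexes as the deposited table annotates them gave like counts. Of 23 tested genes of the PcG protein complex 1 rose and 2 fell, of 13 of the ESC/E(Z) complex, the PRC2 term, 1 rose and 1 fell, and of 11 of the PRC1 complex none rose and 1 fell, beside 9.01% higher and 8.20% lower among all tested genes, so these are no result about the complexes. These sets share core subunits with each other and with the 10 described here.

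**Figure D5:**
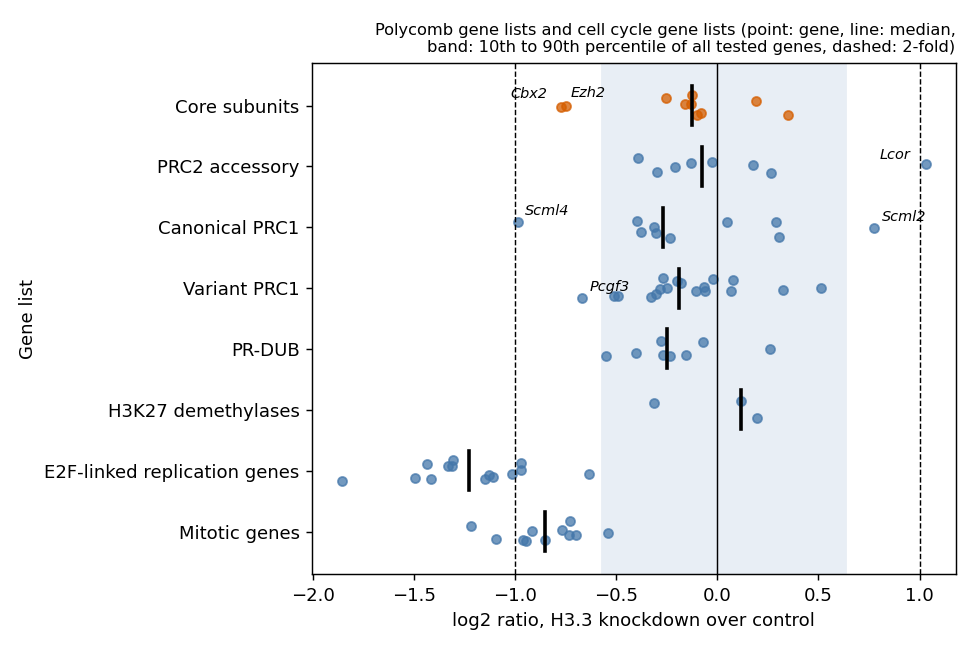
Log2 ratio of each tested gene, H3.3 knockdown over control, in the core subunits, 5 lists of other Polycomb genes and 2 lists of cell cycle genes; lines mark medians and the band the 10th to 90th percentile of all tested genes. The other Polycomb lists have medians from -0.27 to 0.12, and the replication and mitotic lists medians of -1.23 and -0.85.

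Cell cycle genes were lower beside Ezh2 and Cbx2. Among all tested genes 8.20% were lower by the 1.5-fold rule and 9.01% higher. All 14 replication genes looked at fell, 11 of them past 2-fold where 2.54% of all tested genes were lower, and their summed level was 610 CPM in H3.3 knockdown and 1435 CPM in control. The 6 whose intervals lay farthest from 1 were Cdc6, Rrm2, Uhrf1, Mcm2, Mcm6 and Mcm5, with ratios of 0.274 to 0.403. Of 11 mitotic genes 10 fell, 2 of them past 2-fold, with summed levels of 919 and 1714 CPM, and Foxm1, the mitotic transcription factor, had the lowest ratio among them (0.429, 0.377 to 0.488). The proliferation marker Mki67 had 309 CPM in H3.3 knockdown and 583 CPM in control (0.530, 0.506 to 0.555). Ezh2 against Mki67 gave a ratio of ratios of 1.12 (1.02 to 1.24) and Cbx2 against Mki67 1.10 (0.947 to 1.29). Beside Ezh1, 6 of the 10 neuronal markers rose and 1 fell, and Tubb3 (0.956) was not past the rule. The part of proliferation and of cell makeup in the ratios of Ezh2, Cbx2 and Ezh1 was not tested.

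Most classical Polycomb-repressed genes looked at were near the limit of counting in both libraries. Cdkn2a, a cell cycle inhibitor locus silenced by Bmi1 and Ezh2 in neural stem cells, had 11 counts in H3.3 knockdown and 10 in control (1.16, 0.448 to 3.05). Its neighbour Cdkn2b had 29 and 18 counts (1.70, 0.913 to 3.25), an interval that holds 1. Of 29 developmental regulators that are Polycomb targets in embryonic stem cells, 11 were listed in the table and 4 reached 1 CPM. Gata3, a regulator of T cells and other lineages, rose to 28 counts in H3.3 knockdown, against 10 in control (2.96-fold, 1.39 to 6.82), and Isl1 had 149 and 164 counts (0.959, 0.763 to 1.20). The other 9 listed genes had at most 15 counts in either library. Histone marks were not measured here, so nothing in these files says whether the Polycomb marks themselves differed.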

How the data were processed

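Gene counts of 1 H3.3 knockdown and 1 control library came from 1 deposited table. Its counts are whole reads per gene as deposited by the authors, and polyadenylated RNA was enriched with oligo(dT) from 2 µg of total RNA, per the labels' protocols. Read handling used HTSeq 0.6.0, Bowtie 1.0.1 and TopHat2 2.0.12, per the submitters' processing notes. Settings, genome build and any use of strand were not given in the sources used here. Normalized columns are the authors' CPM, and their deposited fold change is the ratio of these, with its log2 value. The deposited p-values of the authors, whose test has no name in the table, were not used.

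Symbols were found for 18423 of 18510 Ensembl IDs. Counts were divided by the total over listed genes. A log2 ratio has 0.5 count added to each library. Ratio intervals are exact conditional (Clopper-Pearson) ones without added counts, and ratios of ratios use the exact conditional odds ratio (scipy 1.17.1). PCR reads are not independent molecules, so intervals may be too narrow. Lengths came from GENCODE vM21, whose positions equal those of the table for 9 of the 10 subunits. Exons of Ezh2, Suz12, Eed, Rnf2 and Cbx7 overlap a gene on the other strand over 1.54% to 6.82% of their length, and reads there cannot be told apart. Named were every subunit, H3f3a, H3f3b, Mki67, Tubb3, Nes, Sox2 and from each list the genes past the 1.5-fold rule or else its 2 most abundant. Rbbp4, Rbbp7, Mtf2, Aebp2, Pcgf2, Cbx6, Cbx8 and Isl1 were named after their values were seen, and the cell cycle and cell type lists are mostly given as counts. With 2 libraries a pattern is 1 ratio, so no gene is named for a like pattern. The members, lists and rules were chosen with earlier results of these data known. The procedure was tested on simulated counts. TMM (edgeR 4.0.16) and DESeq2 1.42.0 size factors served as alternative scalings.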

Additional observations from a re-analysis of the deposited data

How the results depend on the processing

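Each subunit's log2 ratio was computed under 5 alternatives (TMM, DESeq2 size factors, totals without the 100 most counted genes, a correction for length and GC content, and 5 counts added), and all 50 values stayed inside the counting interval of the reported one. Ezh2 ranged from -0.76 to -0.73, Cbx2 from -0.78 to -0.68 and Ezh1 from 0.34 to 0.39. The 1.5-fold rule called 2 subunits and the 2-fold rule none under every scaling, correction and minimum level tried. With DESeq2 size factors the interval of Bmi1 also excluded 1. The Ezh2 to Ezh1 log2 balance was -1.09 with 5 counts added and -1.14 after the correction.

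The levels per length depended on the length, by its construction. With the longest transcript in place of merged exons, Ezh2 to Ezh1 was 5.02 in H3.3 knockdown and 10.8 in control, and Bmi1 to Pcgf2 was 1.37 and 1.14. Among the other Polycomb genes, Asxl3 was called after the correction and Scml2 was not tested at a minimum of 10 CPM. No paired analysis was possible because each group has 1 library, and for the same reason no library could be left out. The Rnf2 to Ring1 log2 balance was 0.08 as reported and -0.02 after the correction, and the median log2 ratio of the subunits was -0.13 as reported and -0.07 after it. Few counts leave wide intervals for Cbx7, Scml2, Gata3 and the Cdkn2 genes.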
